A study of Mus musculus with 24 samples.

Results

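The keratin genes were taken as every mouse gene whose symbol is Krt followed by a number and an optional letter, which left out the keratin-associated Krtap genes. The rule found 54 genes among the 27080 of the deposited tables, 27 in the cluster of chromosome 11 and 27 in the cluster of chromosome 15. Mammary basal cells from untreated C57BL/6 females were sorted into 4 subpopulations, Lgr5+Tspan8hi, Lgr5+Tspan8-, Lgr5-Tspan8hi and Lgr5-Tspan8-, by the R-spondin receptor Lgr5 and the tetraspanin Tspan8. The mark H3K4me3, found at active and poised promoters, and the Polycomb mark H3K27me3 were measured by chromatin immunoprecipitation and sequencing, with 2 libraries per mark and subpopulation. The labels used here give neither the age of the females nor how Lgr5 and Tspan8 were detected in the sort. They also do not say whether the replicates came from separate animals, so that every p-value below measures only the spread between these libraries, which may be technical. The sorted cells were measured in bulk, and fewer cells that carry a mark cannot be told apart from less of the mark per cell.

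Keratins are the intermediate filament proteins of epithelia. A filament is built from pairs of an acidic type I and a basic type II keratin, and the type I genes lie together on mouse chromosome 11 while the type II genes lie on chromosome 15, where the type I gene Krt18 sits beside its type II partner Krt8. In the mammary gland the outer basal layer is known for Krt5 and Krt14, the inner luminal layer for Krt8 and Krt18, and most other keratins serve the epidermis, the hair shaft, the inner root sheath that guides the hair, or other stratified epithelia. The members were described in those classes, with 4 basal keratins (Krt5, Krt14, Krt15 and Krt17), 5 luminal and simple-epithelial ones (Krt7, Krt8, Krt18, Krt19 and Krt20), 15 of the hair shaft, 9 of the inner root sheath and companion layer, 15 of stratified epithelia and 6 others. Krt74 is annotated as a transcribed pseudogene in mouse.

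The promoters of keratins from both ends of the results are printed first. Each line holds the 250 bases before the annotated start from RefSeq on GRCm38.p6, 5′ to 3′ on the strand of the gene, with every CpG and every TATAAA in capitals. The first 5 belong to basal, luminal and glandular keratins that lay above the median of all genes in H3K4me3.
Krt5: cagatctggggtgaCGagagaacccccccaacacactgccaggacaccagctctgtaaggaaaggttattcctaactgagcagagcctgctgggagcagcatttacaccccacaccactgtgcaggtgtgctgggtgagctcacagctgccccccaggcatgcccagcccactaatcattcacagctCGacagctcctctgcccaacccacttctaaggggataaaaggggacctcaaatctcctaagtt
Krt8: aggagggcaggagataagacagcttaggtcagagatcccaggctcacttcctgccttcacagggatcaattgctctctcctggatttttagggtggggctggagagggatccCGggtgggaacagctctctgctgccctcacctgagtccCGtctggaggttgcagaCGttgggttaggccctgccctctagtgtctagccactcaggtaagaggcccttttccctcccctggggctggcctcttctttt
Krt18: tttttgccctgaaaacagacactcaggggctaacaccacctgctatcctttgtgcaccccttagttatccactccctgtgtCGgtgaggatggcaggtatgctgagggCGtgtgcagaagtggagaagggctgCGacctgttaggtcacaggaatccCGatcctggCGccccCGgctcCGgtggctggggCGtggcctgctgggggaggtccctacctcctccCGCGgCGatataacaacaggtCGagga
Krt7: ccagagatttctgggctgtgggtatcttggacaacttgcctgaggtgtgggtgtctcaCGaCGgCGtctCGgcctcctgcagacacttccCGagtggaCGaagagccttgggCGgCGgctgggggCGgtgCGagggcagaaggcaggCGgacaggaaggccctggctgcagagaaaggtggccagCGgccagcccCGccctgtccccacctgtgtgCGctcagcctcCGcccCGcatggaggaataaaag
Krt23: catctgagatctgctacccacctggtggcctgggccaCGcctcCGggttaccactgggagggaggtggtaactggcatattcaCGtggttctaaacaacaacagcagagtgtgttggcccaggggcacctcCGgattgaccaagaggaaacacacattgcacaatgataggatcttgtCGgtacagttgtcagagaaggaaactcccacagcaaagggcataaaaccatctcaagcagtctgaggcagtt
These stretches lie at chr15:101712906-101713155 on the minus strand for Krt5, chr15:102004343-102004592 on the minus strand for Krt8, chr15:102027966-102028215 on the plus strand for Krt18, chr15:101412153-101412402 on the plus strand for Krt7 and chr11:99493121-99493370 on the minus strand for Krt23. They hold 2 CpG for Krt5, 3 for Krt8, 12 for Krt18, 16 for Krt7 and 5 for Krt23, and none of them holds TATAAA.

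The next 3 belong to keratins of the inner root sheath, the palate and the hair shaft, which had little H3K4me3.
Krt27: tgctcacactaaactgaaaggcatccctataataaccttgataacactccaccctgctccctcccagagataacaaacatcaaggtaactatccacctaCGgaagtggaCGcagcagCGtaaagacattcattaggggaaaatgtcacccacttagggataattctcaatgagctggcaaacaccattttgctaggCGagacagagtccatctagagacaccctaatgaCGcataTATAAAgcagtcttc
Krt76: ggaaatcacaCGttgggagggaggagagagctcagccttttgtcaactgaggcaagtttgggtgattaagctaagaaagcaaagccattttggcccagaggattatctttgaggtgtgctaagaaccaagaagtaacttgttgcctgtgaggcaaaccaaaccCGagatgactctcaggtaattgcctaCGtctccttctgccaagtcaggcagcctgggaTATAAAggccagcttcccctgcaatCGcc
Krt33b: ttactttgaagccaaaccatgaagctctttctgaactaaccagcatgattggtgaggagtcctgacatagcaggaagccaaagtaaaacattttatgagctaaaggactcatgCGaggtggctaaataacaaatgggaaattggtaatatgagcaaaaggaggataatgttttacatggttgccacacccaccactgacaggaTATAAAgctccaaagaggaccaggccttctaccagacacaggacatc
They lie at chr11:99351119-99351368 for Krt27, chr15:101892921-101893170 for Krt76 and chr11:100029869-100030118 for Krt33b, all on the minus strand. Krt27 holds 5 CpG, Krt76 holds 4 and Krt33b holds 1, and the TATAAA begins 15 bases before the start in Krt27, 29 before it in Krt76 and 47 before it in Krt33b. Over windows of 250 bases before to 50 after a start, TATAAA was found on either strand in 17 of 30 keratin windows, and in 13.6% of the windows of all 32851 genes and starts in the RefSeq table. Krt8 was among the 17. Not among them were Krt24, Krt39, Krt13, Krt9, Krt82, Krt90, Krt75, Krt77 and Krt79, all below the median of all genes in H3K4me3. Whether TATAAA goes with the level of H3K4me3 among the keratins was not tested. The Sp1 motif GGGCGG was found on either strand in 2 of the 30 keratin windows, and in 35.7% of all windows. Neither TATAAA nor GGGCGG contains the other. Other motifs were counted too, with N for any base. CCAAT was found in 11 of the 30 keratin windows and 37.4% of all windows, and the AP-1 site TGANTCA in 1 and 7.81%. The AP-2 site GCCNNNGGC was found in 7 and 16.6%, and the keratin promoter element AANCCAAA in 7 and 5.73%. Only 55.6% of the keratin genes had a window within 5 bp of their annotated start, so these counts describe those 30 windows and are void as a check of the keratins as a set. A match is a run of letters and says nothing of a bound factor.

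Total counts were 1472251 to 4740371 per library for H3K4me3 and 2639862 to 6972189 for H3K27me3. Levels are in CPM, a count as a share of the library's total scaled with TMM factors, and are given per kb of gene for H3K27me3, because the H3K27me3 counts grew with gene length while the H3K4me3 counts behaved as counts around a gene start. The first replicate of Lgr5-Tspan8hi stood apart in both marks, with 5844 genes at 0 in H3K4me3 and 4191 in H3K27me3, more than any other library of its mark. For each keratin below with an unadjusted p under 0.05, the value without this library is given beside the value with it. The basal and myoepithelial list without keratins had a median H3K4me3 of 94.3 CPM, with Acta2, the smooth muscle actin of myoepithelial cells, at 117 CPM. The fibroblast list had a median of 30.8 CPM, above the median of all genes of 22.5 CPM. The endothelial list had 7.19 CPM and the immune list 2.07 CPM. Trp63, a basal transcription factor, had 1.76 CPM at the start that was counted, below the median of all genes, although it is a defining marker of the basal layer.

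Among the keratins H3K4me3 was concentrated on few genes. Over the 8 libraries Krt5 had the highest level, 139 ± 25.5 CPM (SD, n = 8), at the 98.0 percentile of all genes, followed by its partner Krt14 with 130 ± 20 CPM. Krt17, a keratin of epithelial appendages and of stressed epidermis, had 109 ± 14.5 CPM, and Krt8 of the luminal pair had 107 ± 10.1 CPM. The levels of Krt5 and Krt14 differed by less than their SD, and so did those of Krt17 and Krt8. Here and below the SD is the spread of a gene over the 8 libraries. All genes share those libraries, so it does not judge the order of genes within a library. These 4 genes lay above the 90th percentile of all genes, which was 94.6 CPM, and only Krt5 and Krt14 lay above the 95th, which was 115 CPM.

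A second tier of keratins followed. Krt23, a type I keratin of simple and glandular epithelia, had 71.4 ± 11.1 CPM and Krt18 had 67.1 ± 9.77 CPM, which again differed by less than their SD. Krt15, known in basal cells of stratified epithelia and in the hair follicle bulge, had 43.2 ± 11 CPM, the lowest of the basal class. Krt19 with 27.8 ± 5.86 CPM, Krt10 with 27.8 ± 5.45 CPM and Krt7 with 25.6 ± 6.00 CPM were the last above the median of all genes, 22.5 CPM, and did not differ beyond their SD. Krt10 is the type I keratin of the suprabasal epidermis, and its partner there, Krt1, had 2.17 ± 1.08 CPM. Just under the median of all genes were Krt80, a type II keratin of many epithelia, with 22.0 ± 5.35 CPM and Krt42 with 17.7 ± 5.08 CPM. In all 10 of the 54 keratins lay above that median.

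The remaining keratins had little H3K4me3. Krt71 of the inner root sheath led them with 11.7 ± 4.08 CPM, and the lowest was Krt76, known in the palate, with 0.886 ± 0.792 CPM. Krt20, a keratin of intestinal and urothelial cells placed in the luminal class, had 3.37 ± 2.65 CPM and did not follow the other luminal members. The class median was 119 CPM for the basal keratins, 27.8 CPM for the luminal ones, 14.6 CPM for the others, 2.99 CPM for the hair shaft, 2.95 CPM for the inner root sheath and companion layer, and 2.11 CPM for stratified epithelia. The basal median was above the hair-shaft median, and above the luminal median, in 8 of 8 libraries. Per kb of gene the same medians were 23.3 CPM per kb for basal, 5.44 for luminal and 0.478 for hair-shaft keratins. The H3K4me3 median was 4.96 CPM for chromosome 15 and 3.77 CPM for chromosome 11, with chromosome 15 above in 5 of 8 libraries, so the clusters did not differ steadily in this mark.

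**Figure D1:**
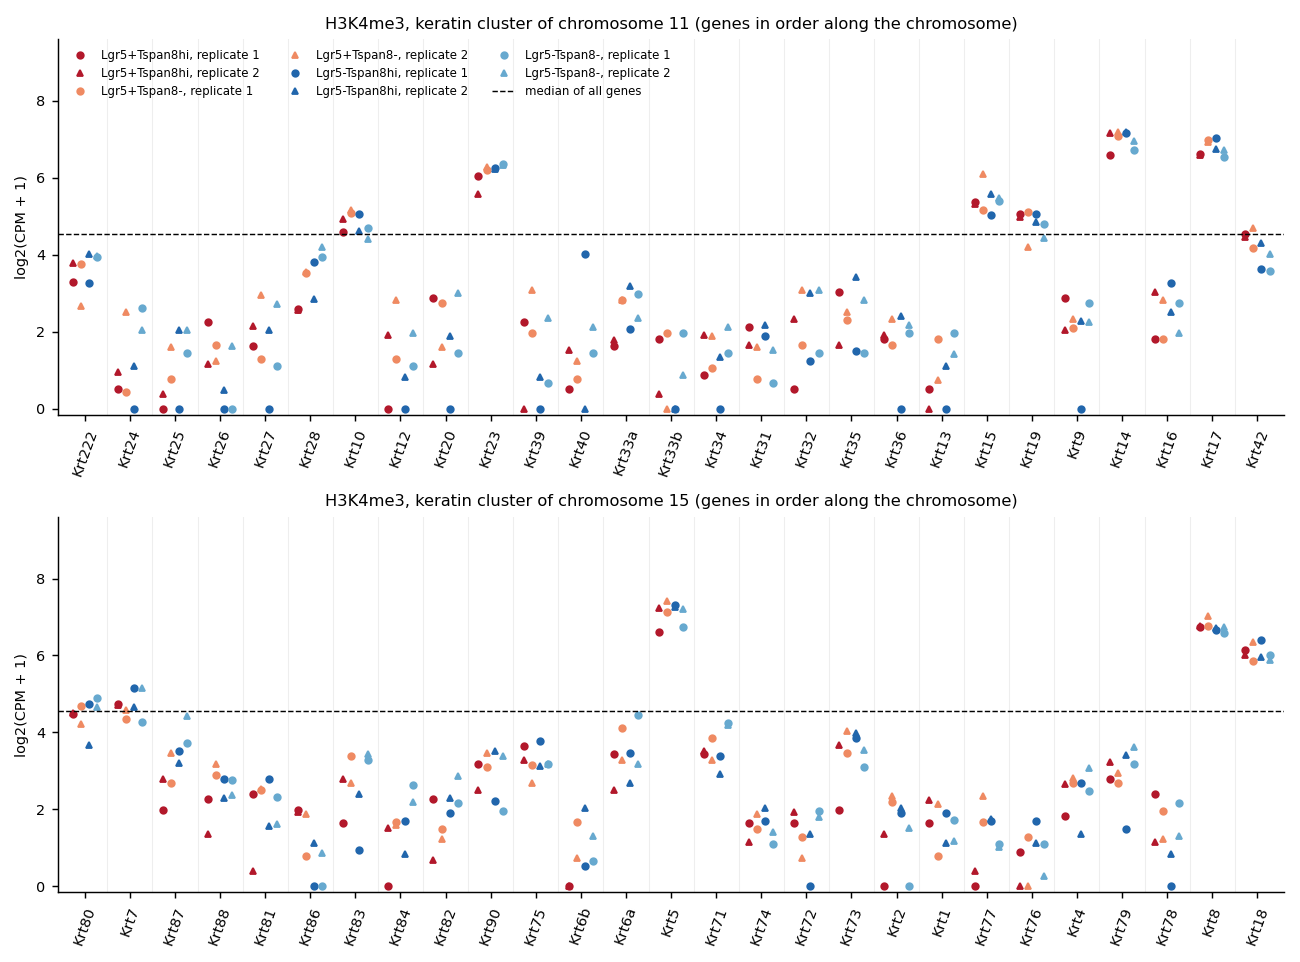
H3K4me3 as log2(CPM + 1) at the 27 keratins of each cluster, in their order along the chromosome; colours are subpopulations, circles and triangles the 2 replicates, and the dashed line the median of all genes. Krt14, Krt17, Krt5 and Krt8 stand highest in every subpopulation, while most keratins lie below the dashed line.

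In the plot of H3K4me3 along each cluster highly marked genes stood among lowly marked ones, except that Krt8 lay beside Krt18 and Krt15 beside Krt19. Krt5, at chr15:101707069-101712905, lay next to Krt6a, a keratin of wounds and the companion layer, whose start is 18600 bp away and whose H3K4me3 was 10.5 ± 5.45 CPM. Krt14, at chr11:100203162-100207510, lay between Krt9, the keratin of palm and sole, with 3.77 ± 1.92 CPM, and Krt16, the wound partner of Krt6a, with 5.03 ± 2.26 CPM. Krt8 and Krt18 lay side by side at chr15:101996711-102004342 and chr15:102028216-102032026. The nearest start to Krt8 was that of Krt78, 7718 bp away, with 1.93 ± 1.45 CPM. Of the 50-base stretches in the gene bodies of Krt6a and Krt6b, 34.4% and 34.9% also occur in another keratin, most often in each other, so reads of these 2 genes may be split or lost, depending on how the authors counted them.

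H3K27me3 was spread over more of the keratins than H3K4me3, at moderate levels. Per gene, without division by length, 26 of the 54 keratins lay above the median of all genes, 7.33 CPM, and 0 above the 90th percentile. Per kb of gene 37 of the 54 lay above the median of all genes, 0.601 CPM per kb. Of these 3 lay above the 90th percentile of 2.82 CPM per kb, and 0 above the 95th percentile of 4.13. The 3 were Krt86 with 3.61 ± 0.941, Krt87 with 3.26 ± 0.763 and Krt27 with 2.96 ± 0.688 CPM per kb (SD, n = 8), which did not differ beyond their SD. Krt86 is a type II keratin of the hair cortex, Krt87 lies nearby in the same cluster, and Krt27 belongs to the inner root sheath. In Krt86 and Krt81, 19.4% and 27.5% of the 50-base stretches of the gene body also occur in another keratin, most often in each other, so the split of reads between them is uncertain. Krt12, the keratin of the cornea, had 2.74 ± 0.426 CPM per kb, and Krt81 of the hair cortex and Krt76 had 2.61 ± 0.452 and 2.60 ± 0.604 CPM per kb. Of 10 other intermediate filament genes, whose median was 2.13 CPM per kb, the neuronal Nefl, Nefm, Nefh and Prph were higher than any keratin, with 5.70, 6.33, 5.83 and 7.34 CPM per kb, and Lmna, a lamin of the nuclear envelope, was the lowest of the 10 with 0.154 CPM per kb.

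Per kb of gene the lowest H3K27me3 was found at Krt10 with 0.146 ± 0.104 CPM per kb, then at Krt36 of the hair with 0.214 ± 0.145 and at Krt78 with 0.247 ± 0.0686 CPM per kb. The annotated Krt78 gene spans 50.6 kb, the longest of the keratins. Without division by length Krt78 had 12.5 CPM, above the median of all genes of 7.33 CPM, so its low place rests on the length used. The basal keratins were near the median of all genes, with 0.622 ± 0.314 CPM per kb for Krt14, 0.604 ± 0.250 for Krt17, 0.497 ± 0.196 for Krt5 and 0.438 ± 0.305 for Krt15, values that did not differ beyond their SD. The luminal class was alike, with 0.497 ± 0.170 for Krt8, 0.528 ± 0.306 for Krt18 and 0.620 ± 0.421 for Krt19, but Krt7 had 1.02 ± 0.269 and Krt20 had 1.40 ± 0.240 CPM per kb. Counts behind most of these values were small, so counting error weighs in them.

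**Figure D2:**
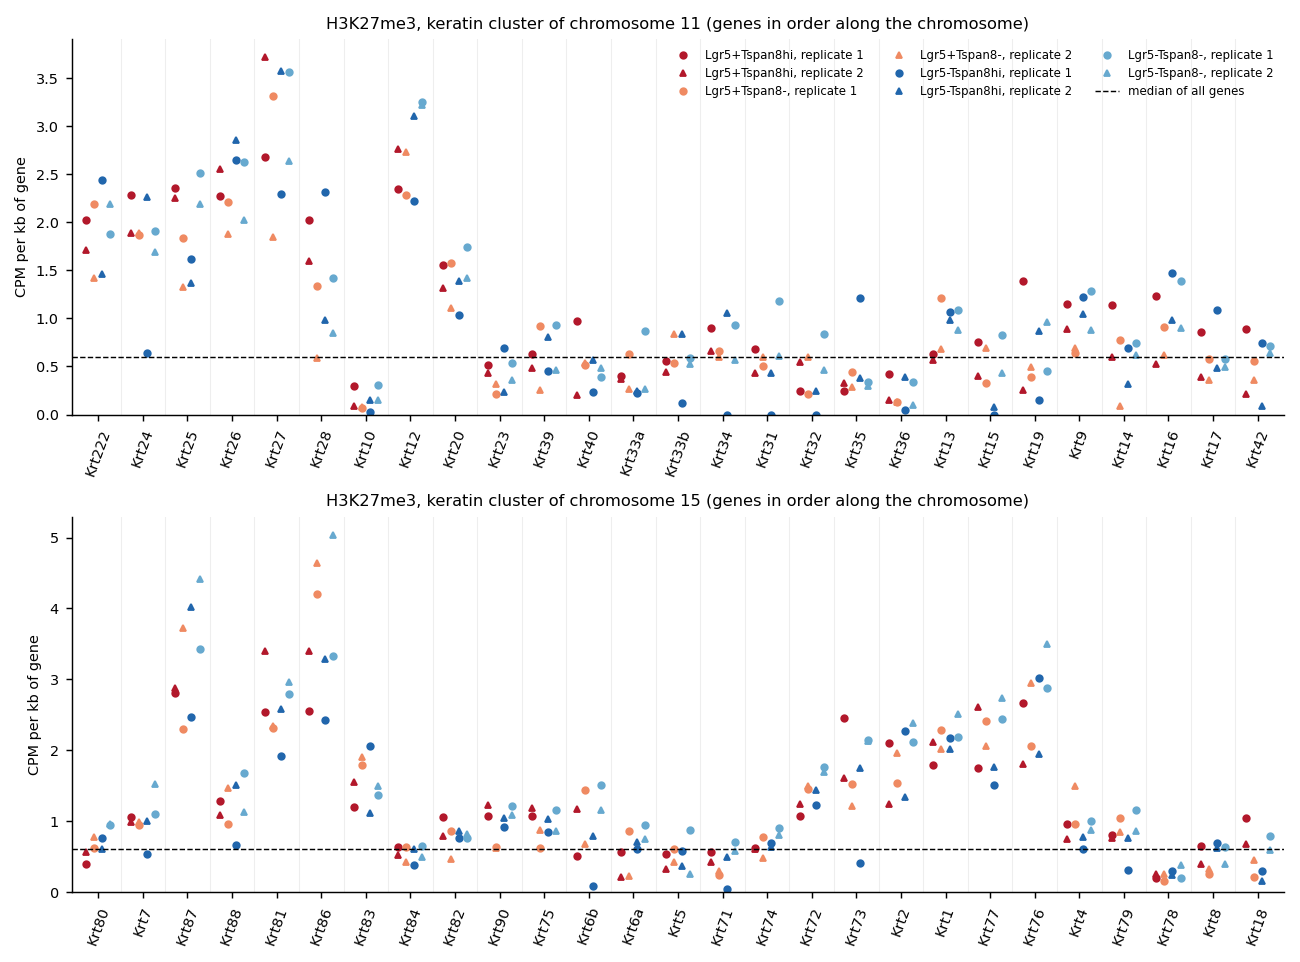
H3K27me3 in CPM per kb of gene at the 27 keratins of each cluster, in their order along the chromosome; colours are subpopulations, circles and triangles the 2 replicates, and the dashed line the median of all genes. High values fall in runs of neighbours, Krt222 to Krt28 with Krt12 and Krt20 on chromosome 11, and Krt87 to Krt83 and Krt72 to Krt76 on chromosome 15.

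The plot of H3K27me3 along each cluster showed runs of neighbouring genes with similar values. On chromosome 11 the 12 genes of the block Krt222 to Krt40 had a median of 1.60 CPM per kb, against 0.558 CPM per kb in the 15 genes of the block Krt33a to Krt42, a ratio of 2.87 that held in direction in 8 of 8 libraries. The point of division was chosen after the values were seen. Within the first block Krt10, Krt23, Krt39 and Krt40 did not follow it, with 0.146, 0.411, 0.619 and 0.488 CPM per kb. On chromosome 15 the hair keratins Krt87, Krt81, Krt86 and Krt83 and the run of Krt72, Krt73, Krt2, Krt1, Krt77 and Krt76 were high, with means of 1.42 to 3.61 CPM per kb, while Krt5, Krt6a and Krt71 between them had 0.497, 0.608 and 0.416 CPM per kb.

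The hair-shaft keratins differed by cluster. The 6 hair-shaft genes of chromosome 15 had a median of 2.08 CPM per kb and the 9 of chromosome 11 had 0.488 CPM per kb, a ratio of 4.27, with chromosome 15 above in 8 of 8 libraries. Within the chromosome 15 group Krt84 and Krt82, with 0.546 and 0.797 CPM per kb, lay far below Krt86 and Krt87. All hair keratins were low in H3K4me3, with a median of 3.24 CPM on chromosome 15 and 2.78 CPM on chromosome 11. Over the whole clusters the H3K27me3 median was 0.957 CPM per kb on chromosome 15 and 0.620 CPM per kb on chromosome 11, a ratio of 1.54, with chromosome 15 above in 7 of 8 libraries. Per gene, without division by length, the same ratio was 2.91. The inner root sheath and companion layer class had the highest class median, 1.42 CPM per kb, against 0.558 for hair-shaft keratins, and was above them in 8 of 8 libraries. No test was made of these levels, since neighbouring genes share signal and are not replicates.

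**Figure D3:**
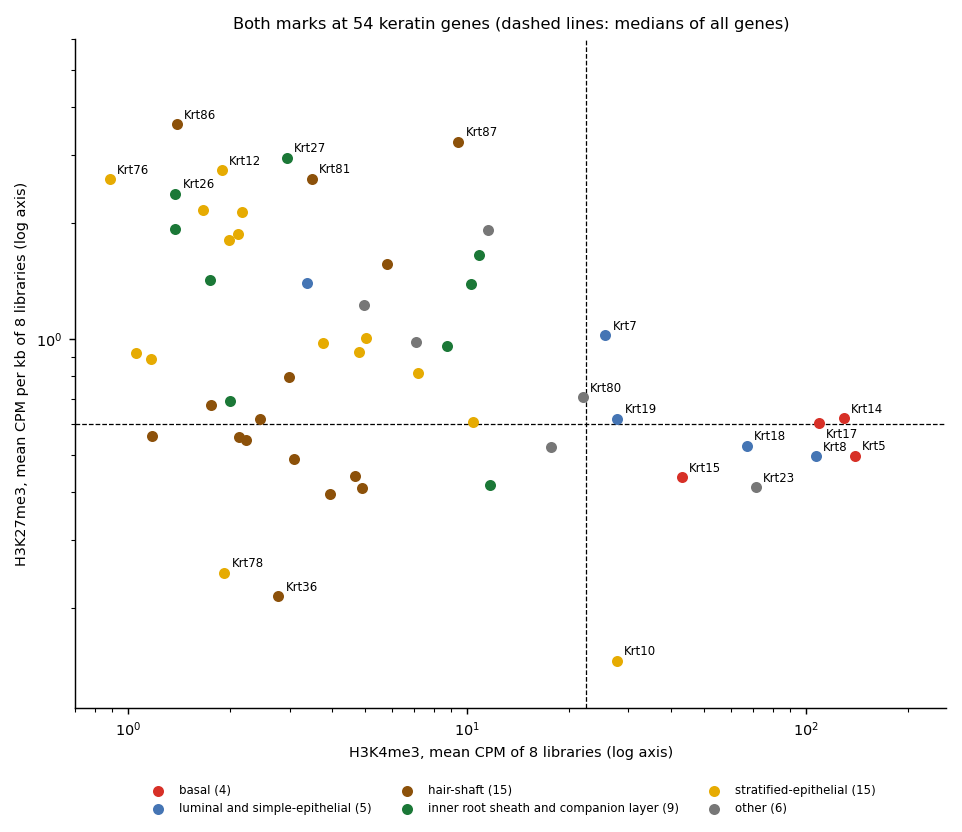
Mean H3K4me3 in CPM against mean H3K27me3 in CPM per kb over 8 libraries for the 54 keratins, both on log axes, coloured by class, with the medians of all genes as dashed lines. The 33 genes at upper left had H3K27me3 above and H3K4me3 at or below those medians, and the basal and luminal keratins other than Krt20 lie to the right.

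Set against the medians of all genes in the plot of both marks, 6 keratins were above in H3K4me3 alone, namely Krt5, Krt8, Krt10, Krt15, Krt18 and Krt23. A further 4, Krt7, Krt14, Krt17 and Krt19, were above in both marks, though Krt14, Krt17 and Krt19 exceeded the H3K27me3 median by less than their SD. The H3K4me3 median was over 27080 genes, and the H3K27me3 median, taken per kb, over the 25189 with a length. Over those 25189 the H3K4me3 median was 27.8 CPM, above the level of Krt7 and about equal to those of Krt10 and Krt19. H3K27me3 alone was above its median in 33 keratins, and in 11 both were at or below. The 11 included the hair keratins Krt31, Krt32, Krt33a, Krt33b, Krt35, Krt36, Krt40 and Krt84, which had neither mark above the median. Krt78 was also among the 11, though without division by length its H3K27me3 was above the median of all genes. Across the 54 keratins Spearman's rho between the 2 marks was -0.39, a description across genes that share libraries and neighbours.

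The comparison of Tspan8hi with Tspan8- cells asked how the marks differ with Tspan8, with 4 libraries against 4. Of 35 keratins tested for H3K4me3, 0 passed an adjusted p of 0.05 in edgeR's quasi-likelihood test, where 0.0473% of all genes tested passed. At an unadjusted p under 0.05 there were 3 keratins, all lower in Tspan8hi, which is 8.57% of them beside 5.90% of all genes. No keratin was called by DESeq2 or limma-voom either. The smallest adjusted p was 0.782, for Krt28. The other 19 keratins had too few H3K4me3 counts for the filter.

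The 3 keratins were Krt28, Krt83 and Krt6a. Krt28, a type I keratin of the inner root sheath at chr11:99365007-99374903, had 5.09 and 4.96 CPM of H3K4me3 in Lgr5+Tspan8hi and 13.1 and 6.24 CPM in Lgr5-Tspan8hi libraries, against 10.5 and 10.8 CPM in Lgr5+Tspan8- and 14.4 and 17.3 CPM in Lgr5-Tspan8- libraries. Its Tspan8hi values overlapped with the Tspan8- values through the first replicate of Lgr5-Tspan8hi, and the log2 fold change was -0.91 ± 0.41 (SE), or -1.22 without that library. Krt83, a hair-cortex keratin, had 2.12 and 5.89 CPM in Lgr5+Tspan8hi and 0.906 and 4.29 CPM in Lgr5-Tspan8hi libraries, against 9.38 and 5.40 CPM in Lgr5+Tspan8- and 8.66 and 9.79 CPM in Lgr5-Tspan8- libraries. The groups overlapped narrowly, and the log2 fold change was -1.33 ± 0.62 (SE), or -0.99 without the first and -2.09 without the second replicate of Lgr5-Tspan8hi. Krt6a had 9.75 and 4.65 CPM in Lgr5+Tspan8hi and 9.96 and 5.46 CPM in Lgr5-Tspan8hi libraries, against 16.2 and 8.77 CPM in Lgr5+Tspan8- and 20.8 and 8.12 CPM in Lgr5-Tspan8- libraries. Within each of its subpopulations the first replicate was the higher, and the log2 fold change was -0.86 ± 0.42 (SE), or -1.10 without the first replicate of Lgr5-Tspan8hi and -0.47 without that of Lgr5-Tspan8-.

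As a group 27 of the 35 keratins had a log2 fold change below 0, with a median of -0.25, beside 9575 of 19009 genes and a median of -0.002 over all genes tested. That median was -0.04 for the 4 basal keratins and 0.10 for the 5 luminal ones, against -0.62 for the 8 hair-shaft keratins tested. Over the keratins the median was -0.10 with offsets fitted against abundance, and -0.13 without the first replicate of Lgr5-Tspan8hi. It was -0.07 when only genes with a mean of at least 5 CPM were tested, which leaves fewer keratins. Its full range was -0.33 to -0.07 in the other settings and -0.38 to -0.11 with a library left out. Tspan8hi libraries had 2309 to 5844 genes at 0 in H3K4me3 and Tspan8- libraries 662 to 2357, and the part of that difference in the shift was not tested.

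**Figure D4:**
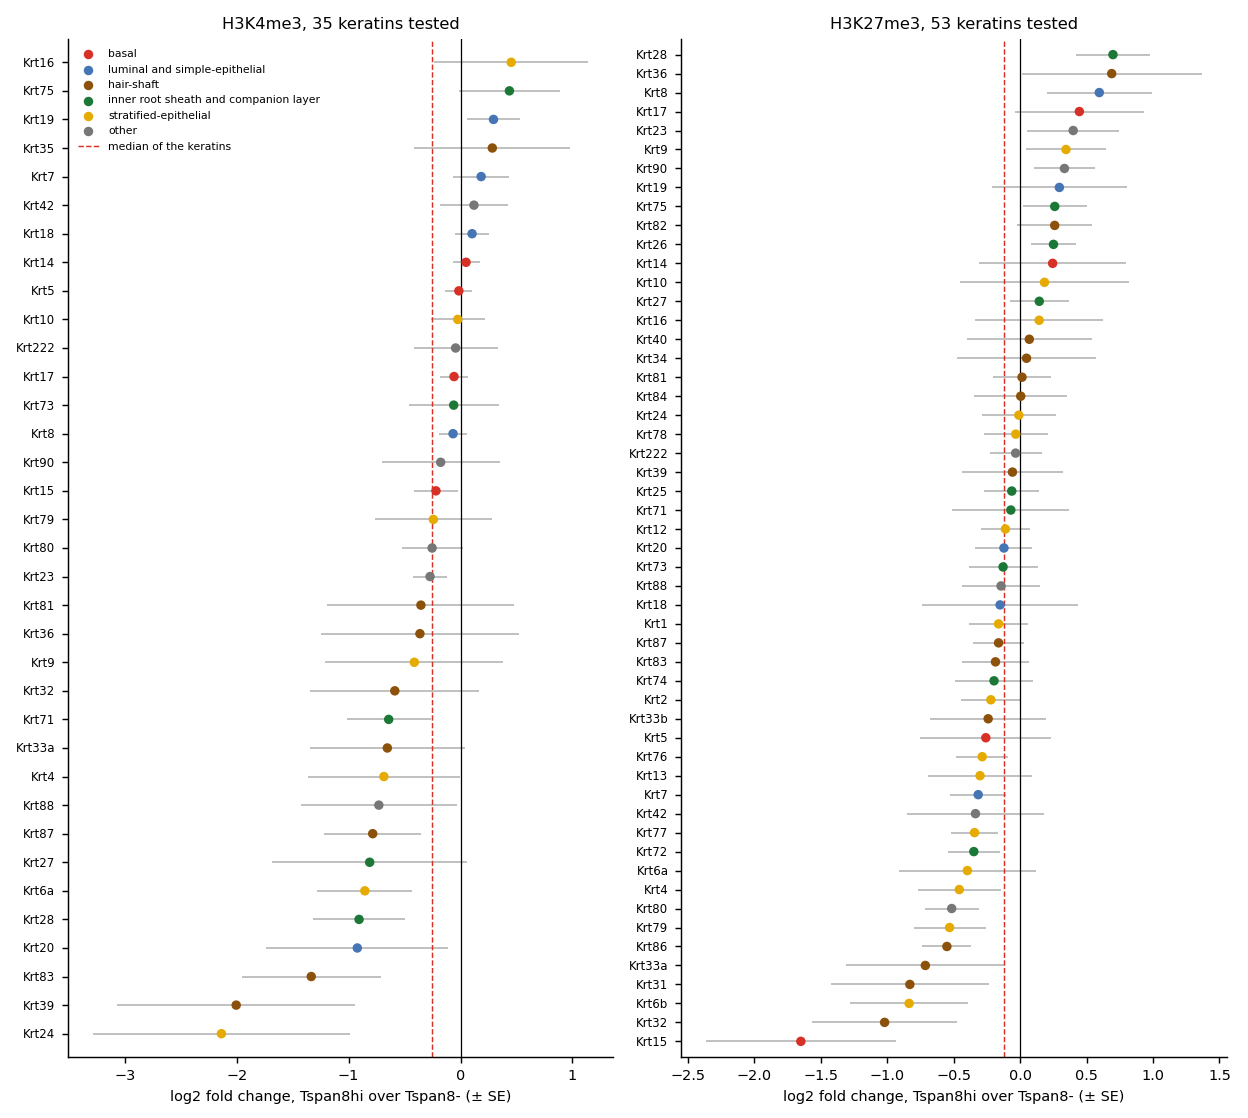
Log2 fold change of Tspan8hi over Tspan8- with its SE for each tested keratin, 35 for H3K4me3 and 53 for H3K27me3, coloured by class and sorted by size, with the median of the keratins as a dashed line. In H3K4me3 27 of 35 lie below 0, and Krt5, Krt14, Krt17 and Krt8 lie close to 0 with short error bars.

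The highly marked keratins showed Tspan8 fold changes near 0. In the plot of Tspan8 fold changes the H3K4me3 values were -0.02 ± 0.12 (SE) for Krt5, 0.05 ± 0.12 for Krt14, -0.06 ± 0.12 for Krt17 and -0.07 ± 0.12 for Krt8. The intervals leave room for small differences, since a p that misses the threshold does not show equal levels. Krt18 had 0.10 ± 0.15, Krt7 had 0.18 ± 0.25 and Krt19 had 0.29 ± 0.24 on the same scale. The luminal list without keratins, given because luminal cells could enter a basal sort, summed to 474 to 607 CPM of H3K4me3 in Tspan8hi and 465 to 530 CPM in Tspan8- libraries, and 0 of its 12 tested members passed. The median of its 15 members was 34.3 CPM, above that of all genes. The hormone receptor genes Pgr and Esr1 had 91.6 and 47.0 CPM and the epithelial adhesion gene Epcam had 89.3 CPM, while Elf5, a luminal progenitor factor, and the milk protein genes Csn2 and Wap were at 1.78, 0.637 and 1.86 CPM. The part of luminal cells in the levels of Krt8 and Krt18 was not tested.

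In H3K27me3 the Tspan8 comparison tested 53 keratins, and 0 passed an adjusted p of 0.05 in edgeR, where 0.335% of all genes passed. At an unadjusted p under 0.05 there were 4, or 7.55%, beside 12.9% of all genes, and neither DESeq2 nor limma-voom called any. Krt86 had the smallest adjusted p, 0.181. It had 2.55 and 3.40 CPM per kb in Lgr5+Tspan8hi and 2.43 and 3.29 CPM per kb in Lgr5-Tspan8hi libraries, against 4.20 and 4.64 CPM per kb in Lgr5+Tspan8- and 3.33 and 5.04 CPM per kb in Lgr5-Tspan8- libraries. The second replicate was the higher one in every subpopulation, the groups overlapped by a single pair of values, and the log2 fold change was -0.55 ± 0.18 (SE), or -0.47 without the first replicate of Lgr5-Tspan8hi. The adjusted p of Krt86 was 0.032 without the first replicate of Lgr5-Tspan8-, and 0.295 without the first replicate of Lgr5-Tspan8hi.

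Krt80, at chr15:101348315-101370162, overlaps the microRNA gene Mir1941, and reads within the overlap cannot be told apart from those of that gene. Its H3K27me3 was 0.402 and 0.571 CPM per kb in Lgr5+Tspan8hi and 0.757 and 0.606 CPM per kb in Lgr5-Tspan8hi libraries, against 0.616 and 0.770 CPM per kb in Lgr5+Tspan8- and 0.950 and 0.966 CPM per kb in Lgr5-Tspan8- libraries. The Lgr5-Tspan8- libraries were the highest and the Lgr5+Tspan8hi libraries the lowest. The log2 fold change was -0.52 ± 0.20 (SE) for Tspan8 and -0.47 ± 0.20 for Lgr5, or -0.59 and -0.39 without the first replicate of Lgr5-Tspan8hi. Krt28 went the other way for Tspan8, with 2.03 and 1.60 CPM per kb in Lgr5+Tspan8hi and 2.32 and 0.981 CPM per kb in Lgr5-Tspan8hi libraries, against 1.34 and 0.586 CPM per kb in Lgr5+Tspan8- and 1.42 and 0.847 CPM per kb in Lgr5-Tspan8- libraries. The first replicate was the higher in each subpopulation, and the log2 fold change was 0.70 ± 0.28 (SE), or 0.37 without the first replicate of Lgr5-Tspan8hi and 1.06 without that of Lgr5+Tspan8-. Its adjusted p was 0.029 without the second replicate of Lgr5-Tspan8hi. Krt15, the remaining keratin of the 4, had a log2 fold change of -1.65 ± 0.71 (SE) on 0 to 19 counts per library, which was -1.39 without the first and -3.26 without the second replicate of Lgr5-Tspan8hi. The median over the 53 keratins was -0.12, beside 0.02 over all genes tested, and -0.03 without the first replicate of Lgr5-Tspan8hi. Its full range was -0.17 to -0.07 in the other settings and -0.26 to -0.03 with a library left out.

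The Lgr5 comparison set 4 Lgr5+ libraries against 4 Lgr5- libraries. In H3K4me3 0 of 35 keratins passed an adjusted p of 0.05, beside 0.0421% of all genes, and 1 keratin had an unadjusted p under 0.05, or 2.86%, beside 4.98% of all genes. DESeq2 and limma-voom called none. That keratin was Krt87, at chr15:101431490-101438804, with 2.97 and 5.89 CPM in Lgr5+Tspan8hi and 5.41 and 10.1 CPM in Lgr5+Tspan8- libraries, against 10.4 and 8.19 CPM in Lgr5-Tspan8hi and 12.1 and 20.4 CPM in Lgr5-Tspan8- libraries. The first Lgr5+Tspan8hi library was the lowest, the groups overlapped, and the log2 fold change was -1.08 ± 0.43 (SE) with an adjusted p of 0.926, or -1.0 without the first replicate of Lgr5-Tspan8hi. Krt42 pointed the other way, with 22.5 and 21.1 CPM in Lgr5+Tspan8hi and 17.0 and 25 CPM in Lgr5+Tspan8- libraries, against 11.3 and 18.7 CPM in Lgr5-Tspan8hi and 11 and 15.2 CPM in Lgr5-Tspan8- libraries, a log2 fold change of 0.57 ± 0.30 (SE). The median over the keratins was -0.05, beside 0.003 over all genes.

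In H3K27me3 the Lgr5 comparison also gave 0 of 53 keratins past an adjusted p of 0.05, beside 0.0407% of all genes, with 2 at an unadjusted p under 0.05, or 3.77%, beside 7.19% of all genes. DESeq2 and limma-voom called none. They were Krt80, given above, with an adjusted p of 0.662, and Krt15, with a log2 fold change of 1.56 ± 0.71 (SE). Krt15 had 0.751 and 0.400 CPM per kb in Lgr5+Tspan8hi and 0.331 and 0.692 CPM per kb in Lgr5+Tspan8- libraries, against 0 and 0.0735 CPM per kb in Lgr5-Tspan8hi and 0.825 and 0.429 CPM per kb in Lgr5-Tspan8- libraries. Its Lgr5-Tspan8hi libraries alone were low, with 0 and 2 counts, and the value was 1.32 without the first of them and 3.19 without the second. The next keratin, Krt87, had -0.31 ± 0.19 (SE), and the median over the keratins was -0.08, beside -0.01 over all genes.

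Whether the Tspan8 difference itself depended on Lgr5 was tested as an interaction, in which a positive value means that Lgr5+Tspan8hi and Lgr5-Tspan8- lie above Lgr5+Tspan8- and Lgr5-Tspan8hi. In H3K4me3 0 of 35 keratins passed an adjusted p of 0.05, as did 0% of all genes, and 3 had an unadjusted p under 0.05, or 8.57%, beside 4.20% of all genes. The 3 were the basal keratins Krt5, Krt14 and Krt17. DESeq2 and limma-voom called none. Krt5 had 96.2 and 149 CPM in Lgr5+Tspan8hi libraries, 139 and 169 CPM in Lgr5+Tspan8-, 158 and 153 CPM in Lgr5-Tspan8hi, and 105 and 146 CPM in Lgr5-Tspan8-. The low values were those of the first replicates of Lgr5+Tspan8hi and Lgr5-Tspan8-. Krt14 followed with 94.9 and 143 CPM in Lgr5+Tspan8hi, 135 and 146 CPM in Lgr5+Tspan8-, 144 and 147 CPM in Lgr5-Tspan8hi, and 105 and 123 CPM in Lgr5-Tspan8-. Krt17 had 96.6 and 96.4 CPM in Lgr5+Tspan8hi, 126 and 121 CPM in Lgr5+Tspan8-, 130 and 106 CPM in Lgr5-Tspan8hi, and 91.8 and 106 CPM in Lgr5-Tspan8-.

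The interaction was -0.59 ± 0.24 (SE) on the log2 scale for Krt5, -0.57 ± 0.24 for Krt14 and -0.60 ± 0.25 for Krt17, each with an adjusted p of 1.00 in edgeR. Without the first replicate of Lgr5-Tspan8hi these were -0.57, -0.58 and -0.45. With a library of Lgr5+Tspan8hi left out they moved further for Krt5 and Krt14, to -0.32 and -0.31 without the first replicate, and to -0.95 and -0.90 without the second. The fourth basal keratin, Krt15, had -0.22 ± 0.39, and Krt8 and Krt18 had -0.17 ± 0.25 and -0.26 ± 0.31.

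**Figure D5:**
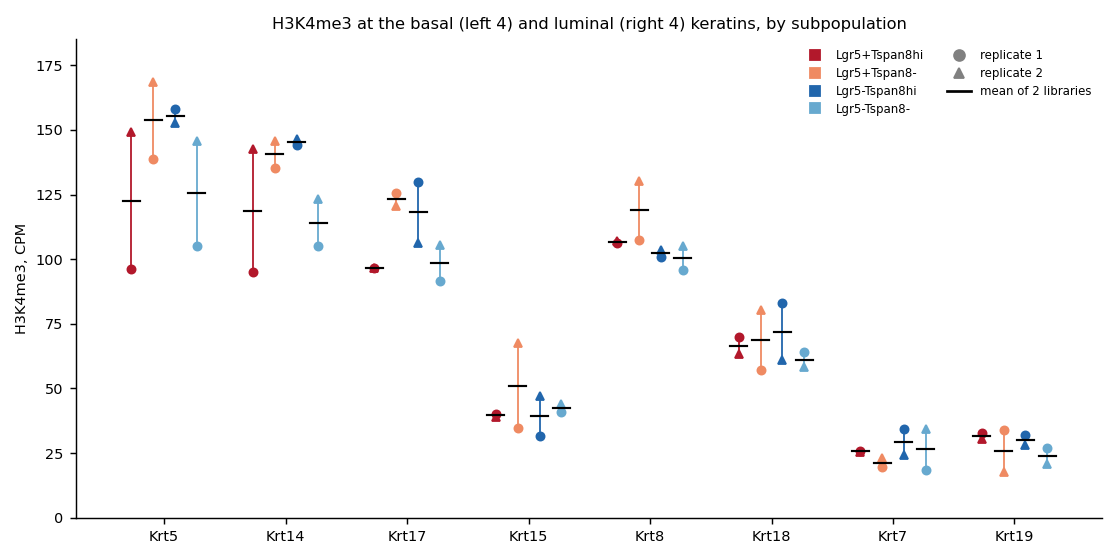
H3K4me3 in CPM at the 4 basal and 4 luminal keratins in each subpopulation, with the 2 libraries as a circle and a triangle and their mean as a bar. Krt5 and Krt14 have their lowest library in Lgr5+Tspan8hi, at 96.2 and 94.9 CPM, and the 2 libraries of that subpopulation lie far apart. So do those of Krt5 in Lgr5-Tspan8-, at 105 and 146 CPM.

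The plot of the basal and luminal keratins by subpopulation shows the spread behind those values. In Lgr5+Tspan8hi the libraries of Krt5 and Krt14 were farther apart than the subpopulation means were from each other. The same held for Krt5 in Lgr5-Tspan8-, with 105 and 146 CPM. Krt8 was even, with 106 and 107 CPM in Lgr5+Tspan8hi, 108 and 130 CPM in Lgr5+Tspan8-, 101 and 104 CPM in Lgr5-Tspan8hi, and 95.8 and 105 CPM in Lgr5-Tspan8-.

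In H3K27me3 most keratins had an interaction above 0, namely 42 of 53, while in H3K4me3 16 of 35 lay above 0 and 19 below, with a median of -0.11. The H3K27me3 interaction of Krt5 and of Krt17 was -0.02 ± 0.99 and -0.05 ± 0.99 (SE). None of the 53 passed in edgeR, a count of 0 beside 0.00905% of all genes, while 6 had an unadjusted p under 0.05, or 11.3%, beside 5.50% of all genes, and all 6 were positive. DESeq2 and limma-voom called none. The 6 were Krt25, Krt71 and Krt73 of the inner root sheath, Krt15, Krt18 and Krt90. Krt25, with the smallest adjusted p of 0.735, had 2.36 and 2.25 CPM per kb in Lgr5+Tspan8hi, 1.84 and 1.33 CPM per kb in Lgr5+Tspan8-, 1.62 and 1.37 CPM per kb in Lgr5-Tspan8hi, and 2.51 and 2.19 CPM per kb in Lgr5-Tspan8- libraries. All 4 libraries of Lgr5+Tspan8hi and Lgr5-Tspan8- lay above the other 4, and the interaction was 1.22 ± 0.41 (SE) on the log2 scale, or 1.32 without the first replicate of Lgr5-Tspan8hi.

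Krt73 had 2.45 and 1.60 CPM per kb in Lgr5+Tspan8hi, 1.53 and 1.22 CPM per kb in Lgr5+Tspan8-, 0.415 and 1.75 CPM per kb in Lgr5-Tspan8hi, and 2.14 and 2.13 CPM per kb in Lgr5-Tspan8- libraries. Its lowest library was the first replicate of Lgr5-Tspan8hi, and the interaction of 1.39 ± 0.52 (SE) was 0.85 without that library, and 2.92 with an adjusted p of 0.0116 without the second replicate. Krt18 had 1.04 and 0.684 CPM per kb in Lgr5+Tspan8hi, 0.208 and 0.457 CPM per kb in Lgr5+Tspan8-, 0.296 and 0.162 CPM per kb in Lgr5-Tspan8hi, and 0.786 and 0.589 CPM per kb in Lgr5-Tspan8- libraries, on 3 to 24 counts. Here too the 4 libraries of Lgr5+Tspan8hi and Lgr5-Tspan8- lay above the other 4, and the interaction was 3.03 ± 1.19 (SE), or 3.40 without the first replicate of Lgr5-Tspan8hi. Krt90 had 1.08 ± 0.46 (SE), or 1.01 without that library. Krt71 had 1.91 ± 0.87 (SE), which was 1.26 without that library, and 4.75 with an adjusted p of 0.045 without the second replicate of its subpopulation. Krt15 had 3.65 ± 1.42 (SE), which was 3.14 and 6.88 in the same settings.

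The median over the 53 keratins was 0.43, while 11076 of 22099 genes were above 0 with a median of 0.001 over all genes tested. The median was 0.41 without the first replicate of Lgr5-Tspan8hi and 0.24 without the first replicate of Lgr5+Tspan8hi. Its full range with a library left out was 0.24 to 0.70. It was 0.50 on chromosome 11 and 0.32 on chromosome 15. As levels, the median keratin had 0.883 CPM per kb in Lgr5+Tspan8hi, 0.770 CPM per kb in Lgr5+Tspan8-, 0.781 CPM per kb in Lgr5-Tspan8hi and 0.982 CPM per kb in Lgr5-Tspan8-, each the mean of 2 libraries, and the median over all genes was 0.584, 0.513, 0.510 and 0.531 CPM per kb in the same order. Keratins were not alone in this: the H3K27me3 interaction had a median of 0.51 over the 16 desmosome and hemidesmosome genes and of 0.97 over the 10 basal and myoepithelial genes without keratins, with no member past the threshold in either list. These were the 2 highest lists. The regulators had 0.34, the epidermal keratinocyte list 0.31, the other intermediate filaments 0.22 and the fibroblast list 0.12. The luminal list had 0.02, the endothelial list -0.17 and the immune list -0.23. Neighbouring keratins share signal, so these counts are no set of independent measures.

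A test of any difference among the 4 subpopulations gave the same outcome. In H3K4me3 0 of 35 keratins passed in edgeR, beside 0.0894% of all genes, with 2 at an unadjusted p under 0.05, or 5.71%, beside 5.27% of all genes. In H3K27me3 0 of 53 passed, beside 0.529% of all genes, with 3 at an unadjusted p under 0.05, or 5.66%, beside 11.1% of all genes. The smallest adjusted p was 0.899 for Krt87 in H3K4me3 and 0.339 for Krt80 in H3K27me3, and DESeq2 and limma-voom called no keratin. On simulated counts for the Tspan8 comparison with 2-fold changes in known genes, 77.1% were called in H3K4me3 and 78.6% in H3K27me3. The simulation gave every gene the same spread, used the full library totals and changed only genes above 2 CPM. Its shares therefore do not carry over to keratins with few counts, such as Krt39, whose SE for Tspan8 in H3K4me3 was 1.06.

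Desmosomes and hemidesmosomes anchor keratin filaments to the neighbouring cell and to the basement membrane, and of 16 such genes 0 rose and 0 fell past the threshold in H3K4me3 or H3K27me3 in the Tspan8, Lgr5 and interaction tests, in which 0% to 0.335% of all genes passed. Their H3K4me3 had a median of 66.5 CPM, above that of the luminal keratins. Itga6, the integrin of hemidesmosomes, had 126 CPM, Jup, the plakoglobin of desmosomes, had 122 CPM, and Pkp1, a plakophilin that binds keratins, had 115 CPM. Dsg3, the desmoglein of stratified epithelia, had 7.22 CPM.

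Of the 14 regulators of keratin genes and of hair, 13 were tested in H3K4me3 and 14 in H3K27me3, and 0 passed in either direction in those comparisons, where again 0% to 0.335% of all genes did. Their median was 52.0 CPM in H3K4me3 and 1.15 CPM per kb in H3K27me3, both above the medians of all genes. In H3K4me3 the highest were Gata3 with 254 CPM, Tfap2a with 174 CPM, Tfap2c with 170 CPM and Klf4 with 161 CPM, and the epidermal factors Ovol1 and Grhl3 had 50.3 and 23.7 CPM. In H3K27me3 the highest were Hoxc13, a homeobox factor of hair keratin genes, with 10.2 CPM per kb, Msx2 with 4.27, Lef1 with 3.72, Dlx3 with 3.33 and Foxn1 with 2.49 CPM per kb, followed by Ovol1 with 1.95 and Grhl3 with 1.44 CPM per kb. Hoxc13 was above every hair keratin in H3K27me3 per kb, and Foxn1 was below Krt86 and Krt87. In H3K4me3 Hoxc13 had 12.3 CPM and Foxn1 5.33 CPM, both under the median of all genes. Lef1 with 52.2, Dlx3 with 51.8 and Msx2 with 46.3 CPM were above that median.

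Other lists set the keratins in context. The epidermal keratinocyte list without keratins had a median H3K4me3 of 2.54 CPM, close to that of the stratified-epithelial keratins, and 0 of its 5 tested members passed. Vim, the vimentin of mesenchymal and some basal cells, had 114 CPM, at the level of Krt17 and Krt8, and 0.373 CPM per kb of H3K27me3. In the fibroblast list Dcn fell in Lgr5+ against Lgr5- cells in H3K4me3 (edgeR, adjusted p = 0.000145). The list summed to 160 to 183 CPM in Lgr5+ and 151 to 249 CPM in Lgr5- libraries. By Tspan8 its sums were 151 to 202 CPM in Tspan8hi and 176 to 249 CPM in Tspan8- libraries. Whether other cells in the sorted fractions bear on the keratin values was not tested.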

How the data were processed

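H3K4me3 and H3K27me3 ChIP-seq libraries were analysed for 4 subpopulations, 16 libraries in all, and 8 input samples were not used here, so that no value is relative to input. The authors deposited a raw read count per Entrez gene. The submitters' processing notes name featureCounts and mm10, while no source used here gives the aligner, the versions, the annotation or the counted region. Neighbouring genes with starts under 1 kb apart had a median count ratio of 1.01 in H3K4me3 and 4.19 in H3K27me3, and Spearman's rho of count with gene length was 0.35 and 0.80 across genes. Symbols and lengths came from RefSeq GRCm38.p6, the assembly of mm10, for 25189 of 27080 identifiers.

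Each mark was fitted on its 8 libraries in edgeR 4.0.16 (R 4.3.3) with filterByExpr, which kept 19009 genes for H3K4me3 and 22099 for H3K27me3, TMM factors and robust quasi-likelihood F tests with Benjamini-Hochberg adjustment over all genes of a mark. SE of a log2 fold change came from its F statistic. Depth ran from 1472251 to 6972189 counts, the biological coefficient of variation was 16.0% and 16.8%, and counting error weighs more at low counts. The fits were tested on simulated data. Replicate libraries differed by more than sampling noise, with chi-square per degree of freedom from 3.09 to 5.67.

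Keratins were named if basal or luminal, if past the threshold, if among the 3 smallest p of a mark and comparison, or if among the 3 highest of a class and mark, and neighbours and list genes were named after their values were seen. Alternatives were RLE factors, library totals, loess offsets, DESeq2 1.42.0, limma-voom (limma 3.58.1), other filters, a replicate block and each library left out. The members, classes and lists were chosen with earlier results of these data known.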

Additional observations from a re-analysis of the deposited data

How the results depend on the processing

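No keratin was called in any comparison of either mark with loess offsets, RLE size factors, library totals alone, DESeq2, limma-voom, no filter, a mean of at least 5 CPM or the replicate block, the last with 0 keratins in each comparison. With single libraries left out the number called was 0 in every H3K4me3 comparison and in the H3K27me3 Lgr5 comparison, 0 to 1 for H3K27me3 and Tspan8, 0 to 2 for its interaction and 0 to 1 for any difference. The calls were Krt28 (Tspan8, adjusted p = 0.029), Krt73 (interaction, 0.0116, and any difference, 0.0117) and Krt71 (interaction, 0.045) without the second replicate of Lgr5-Tspan8hi, and Krt86 (Tspan8, 0.032) without the first of Lgr5-Tspan8-. Without that second replicate the subpopulation rests on the library that stood apart, assumed to vary like the others. No log2 fold change of the 3 keratins with the smallest p in each mark and comparison changed sign under any alternative. With a library left out the median of the keratins crossed 0 in 2 settings for the H3K27me3 Lgr5 comparison, and in 1 each for the H3K4me3 Lgr5 comparison and interaction.

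Over all genes the H3K27me3 Tspan8 comparison gave 74 genes in edgeR, 476 with DESeq2, 294 with limma-voom, 312 with no filter, 136 with a mean of at least 5 CPM, 143 with loess offsets per kb and 6 to 1091 with a library left out, and the Lgr5 comparison gave 9, against 71 with DESeq2 and 2 to 180 with a library left out. Its interaction gave 2 genes, against 12 with DESeq2 and 0 to 110 with a library left out, and any difference gave 117, against 385 and 24 to 733. In H3K4me3 the Tspan8 comparison gave 9 genes, against 1 to 64 with a library left out. With the replicate block the H3K27me3 counts were 678 for Tspan8, 80 for Lgr5, 13 for the interaction and 670 for any difference. Replicate deviations correlated at -0.03 to 0.14 between subpopulations, while 8 of 8 libraries of each mark were closest to their own number. What libraries of the same replicate number share is not given in the labels and was not tested.

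The number of keratins above the median of all genes was 10 in H3K4me3, and 10 to 11 with a library left out. In H3K27me3 it was 37 per kb, and 34 to 38 with a library left out, against 26 per gene. The ratio of chromosome 15 to chromosome 11 in H3K27me3 was 1.54 per kb and 2.91 per gene. The hair-shaft ratio was 4.27, and 3.83 to 4.51 with a library left out. Depth limits the 19 keratins not tested in H3K4me3, where counts were too few to compare.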
